A study of Drosophila melanogaster with 16 samples.

Results

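The loss of dFOXO was examined in old males of Drosophila melanogaster by comparing dFOXO-null males with wildtype males at 31 days of age. The 4 libraries of these males, 2 per genotype, were selected by their labels from the 16 libraries of total small RNA in the series. The dFOXO-null males carried dfoxoΔ94 in the wDah background, a large deletion made by imprecise excision of a P element and reported as a null allele. The wildtype males were wDah, a white allele backcrossed into the outbred Dahomey strain, into which the deletion had also been crossed. Each library held RNA of 40 whole, mated flies of 1 sex, pooled, so that no tissue was separated. Males and females were housed together at 25 °C, and by the labels the young flies, of 5 or 6 days, and the old ones were siblings within a genotype and replicate number. RNA of 19 to 35 nt was cut from a gel, and the reads were counted in 3 tables, for miRNAs and transposons at 19 to 25 nt, for the same features at 21 nt, and for transcripts of the dm6 genome.

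dFOXO is the fly transcription factor that insulin signaling holds out of the nucleus, and it acts on genes of growth, metabolism and stress resistance. Small RNAs guide Argonaute proteins to their targets. miRNAs are cut from hairpin precursors and mostly loaded into Ago1, where they repress messenger RNAs. Short interfering RNAs (siRNAs), cut by Dicer-2 from double-stranded RNA of transposons, viruses and hairpin genes, have a typical length of 21 nt in flies and are loaded into Ago2. Reads of both kinds lie in these tables beside short pieces of tRNAs, rRNAs, snoRNAs and messenger RNAs, so a count on a dm6 transcript is a count of its short fragments and not of the whole RNA.

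The dFOXO-null libraries held 3721873 and 596871 mapped reads of 19 to 25 nt in replicates 1 and 2, against 8636187 and 1309973 in the wildtype libraries. At 21 nt the dFOXO-null libraries held 571346 and 114210 reads, against 1271909 and 246505 in wildtype, and on dm6 the dFOXO-null libraries held 1846901 and 394784 reads, against 6166465 and 942623 in wildtype. Values below are RPM, reads per 1000000 mapped reads of the same table and library, spike-ins left out. Mapped reads here are summed counts, in which a read that aligns more than once may count more than once. The gene foxo (3R, 14056945 to 14087978, plus strand, dm6) had no row in the dm6 table, so the genotype could not be checked by its reads. Replicate 2 of dFOXO-null stood apart in the miRNAs known from the ovary. The summed level of the 4 arms of miR-318, miR-994 and miR-989 was 212 and 1555 RPM in dFOXO-null males and 303 and 117 RPM in wildtype males. In the order of those libraries, these sums were 0.769%, 8.87%, 2.37% and 0.566% of the sum in old females of the same genotype and replicate. The 5 early embryo miRNAs listed did not set that library apart. Their sum was 169 and 179 RPM in dFOXO-null males and 126 and 110 RPM in wildtype males, or in the same order 20.1%, 9.16%, 3.60% and 4.73% of the sum in the matching old females, with dFOXO-null replicate 1 the highest by this share. The yolk protein genes had no rows. The 16 miRNA arms listed for the testis summed to 658 and 829 RPM in dFOXO-null and 465 and 522 RPM in wildtype males. They were not confined to males, with sums of 46.2 to 231 RPM in old females, and their part in the results was not tested. In whole flies, fewer cells of a type and less RNA per cell cannot be told apart.

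None of the 330 miRNAs and transposons tested at 19 to 25 nt passed an adjusted p under 0.05 in the edgeR quasi-likelihood test (0%), against 1 miRNA and 4 transposons with DESeq2. At an unadjusted p under 0.05 edgeR counted 5 of 208 miRNAs, 3 higher and 2 lower in dFOXO-null (2.4%). The median log2 fold change of all miRNAs was 0.02, and it was -0.26 without dFOXO-null replicate 2. With 2 libraries per genotype the smallest p that an exact permutation test allows is 0.333, so each p here comes from the fit over all features. No difference between the genotypes in old males passed the adjusted edgeR test in any table, so these differences are given as values. Where another test, age or sex passed, its adjusted p stands beside some features only, so a missing one does not mean that none passed.

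The miRNAs that differed most were 2 rare ones without a read in old dFOXO-null males. miR-9370-5p had 0 and 0 reads in dFOXO-null, against 108 and 15 reads in wildtype, which was 12.5 and 11.5 RPM. Against a floor of 3 reads over both dFOXO-null libraries it was at least 17.8-fold lower in dFOXO-null (edgeR adjusted p = 0.206). All 8 dFOXO-null libraries of the series, of both sexes and ages, had 0 reads of it, and the 8 wildtype libraries had 15 to 135. Its gene, mir-9370, lies on X at 11710252 to 11710301 on the minus strand (dm6), on another chromosome than foxo. miR-4969-5p had 0 and 0 reads in dFOXO-null and 23 and 3 reads in wildtype, at least 3.76-fold lower by the same floor (edgeR adjusted p = 0.243). It had 1 read in the 8 dFOXO-null libraries together, and at least 3 in each wildtype library. The gene mir-4969 lies on 3R at 21798514 to 21798671 on the minus strand, on the chromosome arm of foxo. Both miRNAs passed the adjusted edgeR test in young males (adjusted p = 0.0102 for each), in libraries separate from those of the old males.

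Among abundant miRNAs, miR-986-5p had the clearest separation. It stood at 7573 and 4225 RPM in dFOXO-null, against 2109 and 2185 RPM in wildtype, and the means were 5899 ± 2367 and 2147 ± 53.6 RPM (SD, n = 2 each). Both dFOXO-null libraries lay above both wildtype libraries, with a log2 fold change of 1.46 ± 0.59 (SE), and of 1.82 without dFOXO-null replicate 2 (edgeR adjusted p = 0.660). Young males had the same order, with 4125 and 4307 RPM in dFOXO-null and 1464 and 2189 RPM in wildtype. Old females did not, with a log2 fold change of -0.24, and the difference between the sexes did not pass the edgeR test. The gene mir-986 lies on 2R at 8444982 to 8445081 on the plus strand, and reads on its precursor in the dm6 table were at 15933 and 6748 RPM in dFOXO-null and 3111 and 3170 RPM in wildtype.

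The mir-959 to mir-964 cluster, a set of neighbouring miRNAs on 2L known from the testis, lay to 1 side of 0 under this scaling. Its reads were not confined to males, with miR-964-5p at 20.3 to 154 RPM in old females. All 9 of its tested arms had log2 fold changes above 0, between 0.25 and 1.16, with a median of 0.70 against 0.02 over all miRNAs. The median was 0.62 without dFOXO-null replicate 2, and 0.00 with library sizes set by the spike-ins, where 4 of the 9 lay below 0. miR-960-3p stood at 77.9 and 68.7 RPM in dFOXO-null and 34.4 and 31.3 RPM in wildtype, a log2 fold change of 1.16 ± 0.54 without overlap (edgeR adjusted p = 0.723). miR-973-5p, of another testis cluster, was at 27.9 and 30.2 RPM in dFOXO-null and 15.4 and 16.8 RPM in wildtype. None of the 9 arms of the mir-959 to mir-964 cluster had an unadjusted p under 0.05 in old males. The direction was not particular to males. In old females miR-960-3p, miR-960-5p, miR-961-3p and miR-964-5p had log2 fold changes of 1.77, 2.07, 0.79 and 2.52. In old males these arms had 1.16, 0.94, 0.76 and 0.70, and the female values of the other arms are not given here.

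The other miRNAs with a low p were those of the ovary, and there 1 library carried the difference. miR-989-3p, known for its role in border cell migration, had 117 and 534 RPM in dFOXO-null, against 90.8 and 19.8 RPM in wildtype. miR-318-3p had 62.1 and 668 RPM in dFOXO-null, against 169 and 71.0 RPM in wildtype, and miR-994-5p had 31.4 and 340 RPM in dFOXO-null, against 41.7 and 24.4 RPM in wildtype. The high library was dFOXO-null replicate 2 in each case. The 4 ovary arms had a median log2 fold change of 2.02 with that library and of -0.22 without it. The mir-310 cluster had 8 of 9 arms above 0 with a median of 0.56, which was -0.66 without that library and -0.41 with library sizes set by the spike-ins. miR-124-3p, a miRNA of neurons, separated the replicates instead, with 34.1 and 245 RPM in dFOXO-null and 33.2 and 253 RPM in wildtype.

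**Figure D1:**
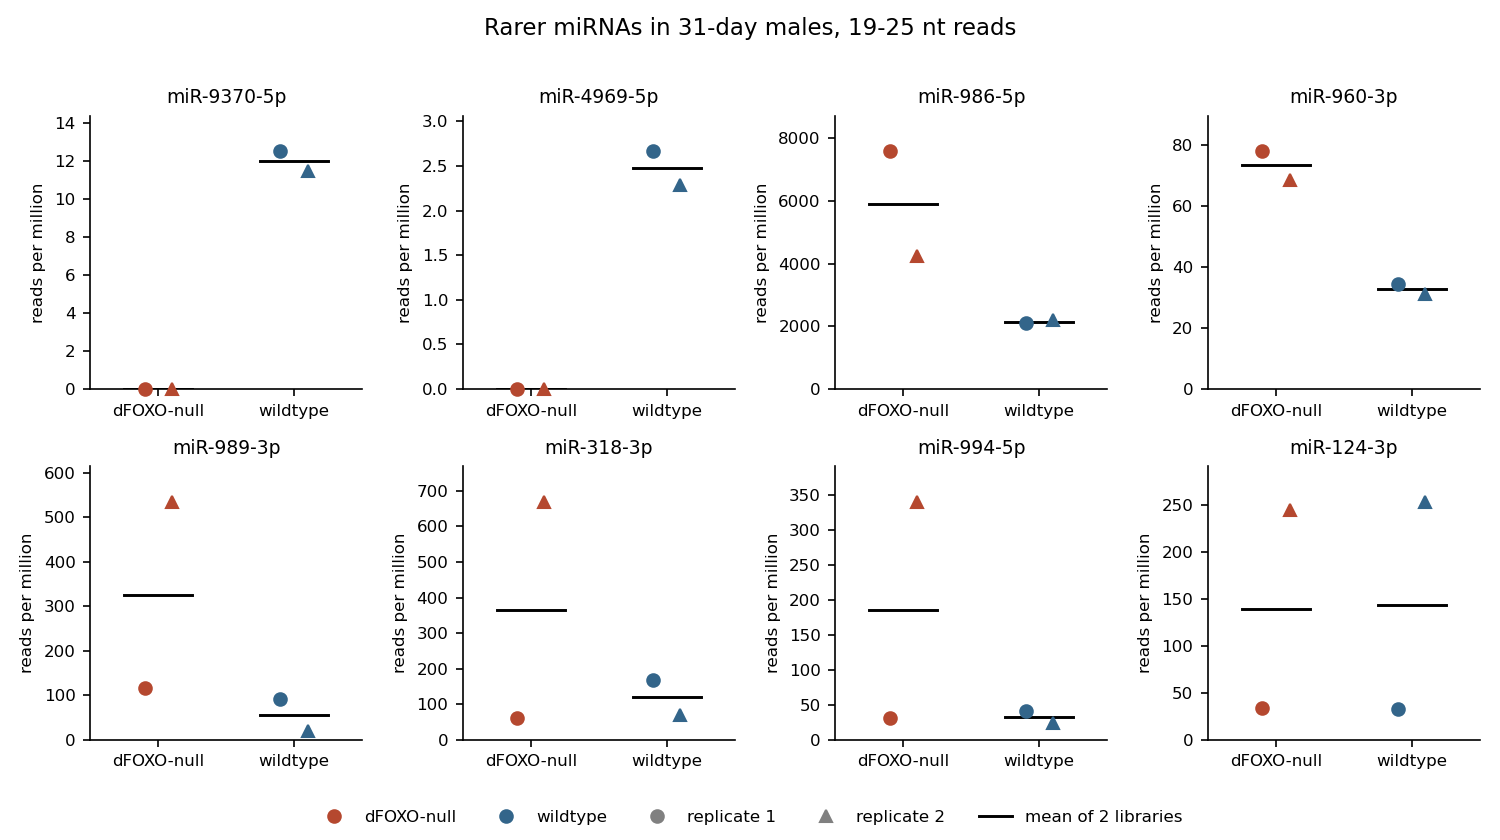
Levels of 8 miRNAs in the 4 libraries of 31-day males, in RPM of the mapped 19 to 25 nt reads (linear axes from 0), with dFOXO-null left of wildtype in each panel. Circles are replicate 1, triangles replicate 2, and bars the mean of 2 libraries. miR-9370-5p and miR-4969-5p had no read in dFOXO-null, miR-986-5p and miR-960-3p separated the genotypes, the 3 ovary miRNAs were high in dFOXO-null replicate 2, and miR-124-3p was high in replicate 2 of both genotypes.

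The miRNAs known to act on growth, insulin signaling and fat metabolism, such as bantam, showed no common direction. Of 20 tested arms, 10 lay above 0 and 10 below, none had an unadjusted p under 0.05, and the median was 0.01. The direction of so small a median turned with the scaling, to -0.12 with TMM factors. Of 12 arms of the cluster of mir-277 and mir-34 and the let-7 complex, which are linked to ageing and developmental timing in flies, 5 lay above 0 and 7 below. miR-34-5p had 43281 and 89597 RPM in dFOXO-null, against 45388 and 90094 RPM in wildtype. miR-277-3p, a regulator of branched-chain amino acid breakdown, had 20875 and 37588 RPM in dFOXO-null, against 21025 and 36174 RPM in wildtype. miR-14-3p, which acts in fat metabolism and insulin-producing cells, had 16442 and 116337 RPM in dFOXO-null, against 21667 and 82079 RPM in wildtype. In all 3 the replicates differed more than the genotypes, and the standard errors of the log2 fold changes (0.88, 0.53 and 1.24) allowed no difference to be read in either direction.

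At 21 nt, none of the 258 features tested passed the adjusted edgeR test (0%), against 1 miRNA and 5 transposons with DESeq2. An unadjusted p under 0.05 was reached by 18 of 105 transposons, 6 higher and 12 lower in dFOXO-null (17.1%), and by 5 of 153 miRNAs (3.27%). In 17 transposons both dFOXO-null libraries lay above both wildtype libraries (16.2%), and in 18 both lay below (17.1%), beside 12% and 12.8% of all 258 features. The median transposon had a log2 fold change of 0.09, which was -0.32 without dFOXO-null replicate 2, -0.01 with TMM factors and -0.37 with library sizes set by the spike-ins.

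The largest difference by reads was in the element 297 (DMIS297), an LTR retrotransposon related to gypsy. It had 296 and 163 reads of 21 nt in dFOXO-null, against 10099 and 2844 reads in wildtype. As levels these were 518 and 1427 RPM in dFOXO-null and 7940 and 11537 RPM in wildtype, with means of 973 ± 643 and 9739 ± 2544 RPM (SD, n = 2 each). No library overlapped. The log2 fold change was -3.33 ± 0.83 (SE), and -4.23 without dFOXO-null replicate 2 (edgeR adjusted p = 0.323, DESeq2 adjusted p = 0.00635). 297 gave 4.62% and 8.74% of the transposon reads of 21 nt in dFOXO-null, against 47.8% and 53.2% in wildtype. By rank it was the fourth most abundant transposon in both dFOXO-null libraries and the first in both wildtype libraries. Young males had 98.0 and 863 RPM in dFOXO-null and 4945 and 7213 RPM in wildtype, so the order was the same at both ages.

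The total of transposon siRNA depended on this element. Transposons gave 1.12% and 1.63% of the mapped 21 nt reads in dFOXO-null, against 1.66% and 2.17% in wildtype, a ratio of means of 0.719. With the reads of 297 taken out, a step chosen after seeing the data, they gave 1.07% and 1.49% in dFOXO-null and 0.873% and 1.03% in wildtype, and the ratio turned to 1.35. Without 297 both dFOXO-null libraries lay above both wildtype libraries at 21 nt. This separation depended in turn on the element roo (DM_ROO). It gave 33.6% and 25.1% of all transposon reads of 21 nt in dFOXO-null, against 9.86% and 7.33% in wildtype. At 19 to 25 nt without 297 the shares were 0.544% and 1.70% in dFOXO-null and 0.693% and 0.731% in wildtype, which overlapped.

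**Figure D2:**
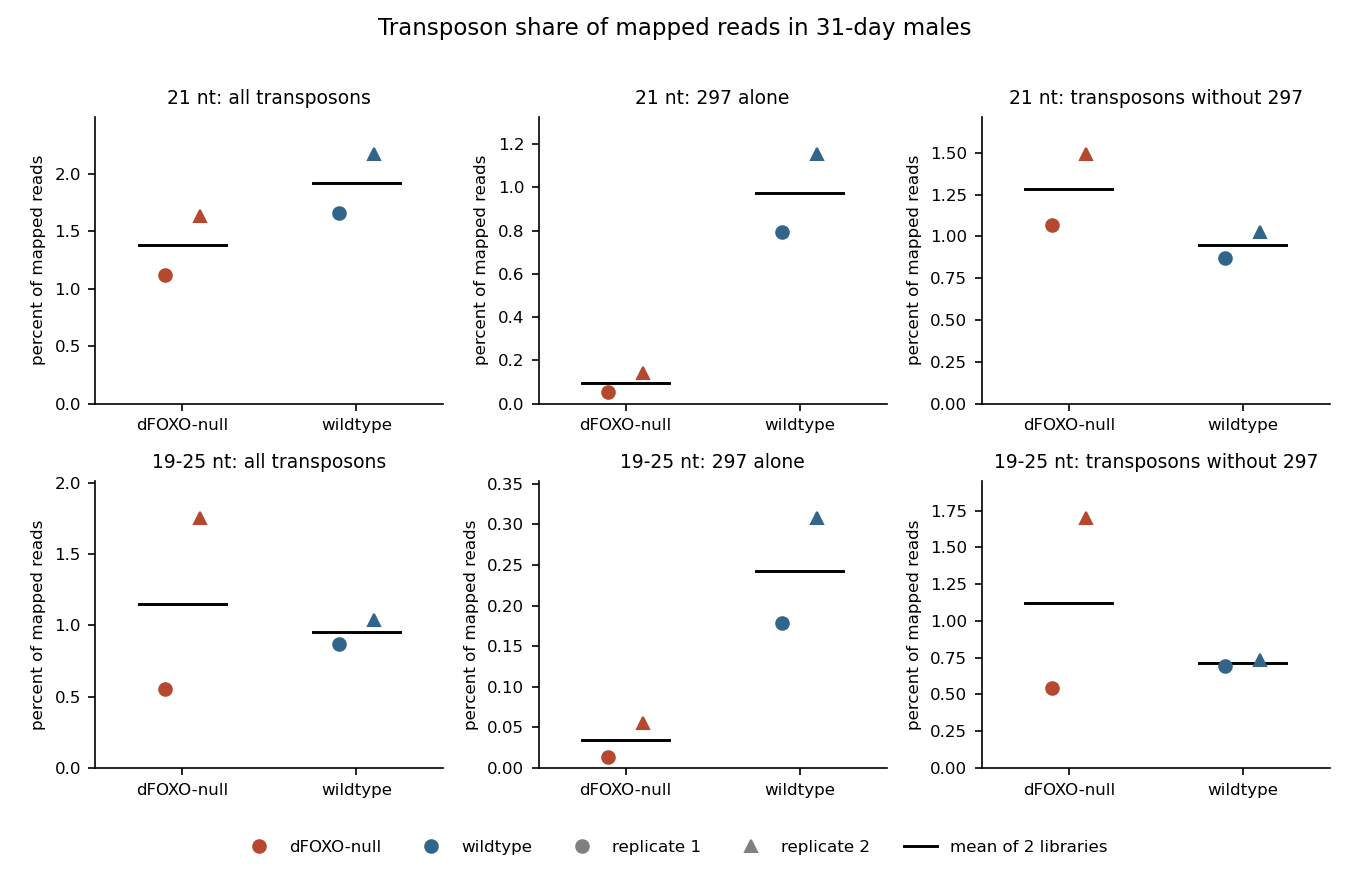
Transposon reads as a percent of mapped reads in 31-day males, at 21 nt (top row) and 19 to 25 nt (bottom row), for all transposons, for 297 alone and for transposons without 297, with dFOXO-null left of wildtype. Points are libraries, bars means of 2, and axes are linear from 0. At 21 nt dFOXO-null averaged 1.38% against 1.92% for all transposons, and 1.28% against 0.951% without 297.

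Further LTR elements of the same group were also lower. opus had 235 and 263 RPM in dFOXO-null, against 655 and 974 RPM in wildtype (log2 fold change -1.71 ± 0.62, edgeR adjusted p = 0.421). 17.6 (DMIS176), a close relative of 297, had 31.5 and 70.0 RPM in dFOXO-null and 110 and 215 RPM in wildtype (-1.78 ± 0.60, edgeR adjusted p = 0.421). The genotypes did not overlap in either element. Of 9 gypsy-group elements tested at 21 nt, 7 lay below 0 and 3 had an unadjusted p under 0.05, all lower and 297 among them, with a median log2 fold change of -0.74 against 0.09 over all transposons. The median of the group was -0.24 without dFOXO-null replicate 1, -0.83 without replicate 2, and from -0.62 to -0.95 under the other scalings. At 19 to 25 nt the same group had 4 elements above 0 and 5 below, 1 with an unadjusted p under 0.05, and a median of -0.12, which was 0.11 with DESeq2. There opus overlapped, with 208 and 476 RPM in dFOXO-null and 343 and 528 RPM in wildtype. 17.6 overlapped there too, with 171 and 151 reads in dFOXO-null and 1374 and 212 in wildtype, and dFOXO-null replicate 2 had its highest RPM. At 21 nt copia, a separate LTR family, had 228 and 201 RPM in dFOXO-null, against 487 and 507 RPM in wildtype (-1.21 ± 0.52, edgeR adjusted p = 0.520). pogo (DMPOGOR11), a DNA transposon, had 35.0 and 8.76 RPM in dFOXO-null and 79.4 and 89.2 RPM in wildtype at 21 nt, and overlapped at 19 to 25 nt. Among rare elements, INVADER3 had 13 and 0 reads in dFOXO-null and 68 and 11 in wildtype, and Q had 1 and 0 reads in dFOXO-null and 17 and 3 in wildtype.

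In the other direction stood roo (DM_ROO), an LTR element of the BEL/Pao type, with 3767 and 4106 RPM in dFOXO-null and 1636 and 1590 RPM in wildtype. Means were 3937 ± 240 and 1613 ± 32.5 RPM (SD, n = 2 each), the genotypes did not overlap, and the log2 fold change was 1.29 ± 0.46, and 1.22 without dFOXO-null replicate 2 (edgeR adjusted p = 0.421, DESeq2 adjusted p = 0.00828). roo was the most abundant transposon in both dFOXO-null libraries and the second in both wildtype libraries. Young males had 4072 and 5639 RPM in dFOXO-null and 1407 and 1917 RPM in wildtype. The telomeric element TARTYAK, of a family that elongates fly chromosome ends, had 231 and 158 RPM in dFOXO-null and 52.7 and 97.4 RPM in wildtype (1.43 ± 0.50, edgeR adjusted p = 0.421), and all 3 telomeric elements tested at 21 nt lay above 0, or 2 of 3 with library sizes set by the spike-ins or without wildtype replicate 2. DMU89994, an element listed by this ID only, had 371 and 184 RPM in dFOXO-null and 106 and 69.0 RPM in wildtype (1.66 ± 0.50, edgeR adjusted p = 0.421). Each of these 3 elements was separated by genotype in old males at 21 nt, and TARTYAK overlapped at 19 to 25 nt.

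Other higher elements rested on 1 library. QBERT had 301 and 1121 RPM in dFOXO-null, against 270 and 85.2 RPM in wildtype, and its log2 fold change of 1.96 was 0.73 without dFOXO-null replicate 2. STALKER2 had 71.8 and 236 RPM in dFOXO-null and 69.2 and 52.7 RPM in wildtype, and its 1.25 was 0.22 without that library. In the table of 19 to 25 nt reads, where 15 of 122 transposons had an unadjusted p under 0.05 (12.3%), the same library stood high in 5 elements that were named after their values were seen. There DME542581 had 9.40 and 186 RPM in dFOXO-null, against 19.3 and 11.5 RPM in wildtype, and DMRER1DM had 30.9 and 660 RPM in dFOXO-null, against 94.0 and 58.8 RPM in wildtype. In both, dFOXO-null replicate 1 lay below both wildtype libraries. DMLINEJA (10.2 and 57.0 RPM in dFOXO-null, 7.41 and 2.29 RPM in wildtype), STALKER2 (75.2 and 427 RPM in dFOXO-null, 69.4 and 50.4 RPM in wildtype) and QBERT (134 and 663 RPM in dFOXO-null, 132 and 75.6 RPM in wildtype) had dFOXO-null replicate 1 just above the wildtype libraries and replicate 2 far above. The median log2 fold change of all transposons at this length was 0.49, and -0.65 without dFOXO-null replicate 2, which was also the library with the high ovary miRNAs.

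**Figure D3:**
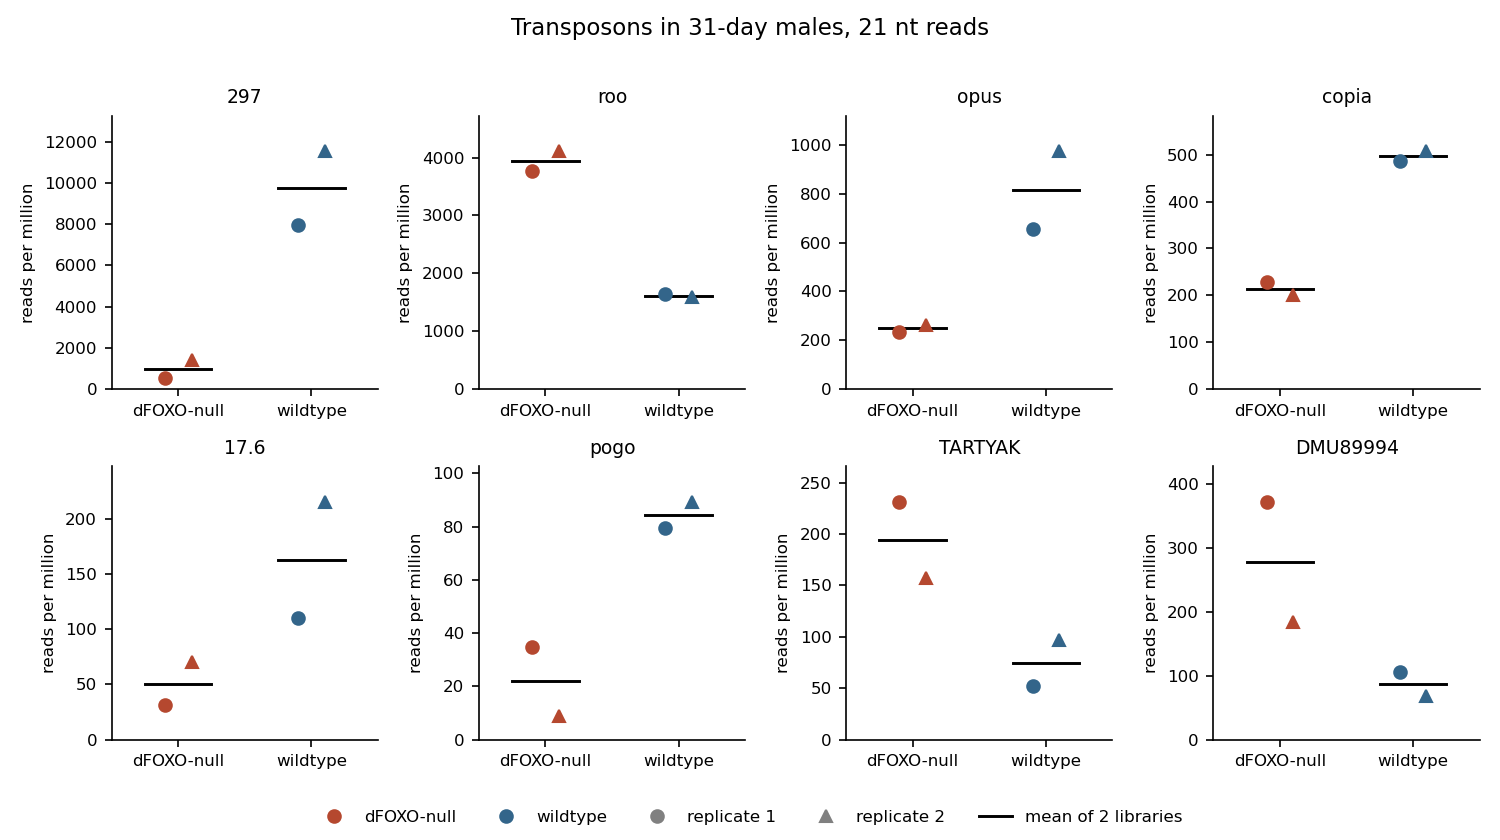
Levels of 8 transposons in 31-day males, in RPM of the mapped 21 nt reads (linear axes from 0), with dFOXO-null left of wildtype in each panel. Circles are replicate 1, triangles replicate 2, and bars means of 2 libraries. 297, opus, copia, 17.6 and pogo were lower and roo, TARTYAK and DMU89994 higher in both dFOXO-null libraries than in both wildtype libraries.

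The share of 21 nt reads among the 19 to 25 nt reads of an element separates siRNA-sized reads from other lengths. For 297 it was 60.9% and 49.5% in dFOXO-null and 65.5% and 70.6% in wildtype, and for roo 57.4% and 41.8% in dFOXO-null and 34.3% and 40.7% in wildtype. Over all transposons it was 30.9% and 17.8% in dFOXO-null and 28.1% and 39.4% in wildtype, which overlapped. Viruses are another source of siRNAs, and the only viral entry counted was of Cricket paralysis virus. It had 0 and 0 reads in dFOXO-null and 0 and 1 in wildtype, and reads of other viruses were not counted.

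In the dm6 table, none of the 1566 transcripts tested passed the adjusted edgeR test (0%), against 20 with DESeq2, of which 12 were higher and 8 lower. An unadjusted p under 0.05 was reached by 127 (8.11%), of which 39 were higher (2.49%) and 88 lower (5.62%) in dFOXO-null. Reads were mapped with all valid alignments reported, and unrelated transcripts that hold the same repeat then carry nearly the same counts. The 127 transcripts fell into 84 groups of shared counts, 36 higher and 48 lower, of 1139 groups among all tested (7.37%). The median log2 fold change was -0.22, 0.04 without dFOXO-null replicate 1, 0.07 without wildtype replicate 2, and -0.95 with library sizes set by the spike-ins.

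The leading higher transcripts had nearly equal counts in old males, but not over all libraries, and were counted as separate groups. Gas8, whose product belongs to the axoneme of cilia and flagella, lncRNA:CR44657, lncRNA:CR45222 and Ogdh, which encodes a subunit of the oxoglutarate dehydrogenase of the citric acid cycle, lie on X, X, 3R and 3L. Whether they share reads was not tested. Gas8 had 49 and 16 reads in dFOXO-null, against 20 and 1 reads in wildtype. As levels these were 26.5 and 40.5 RPM in dFOXO-null and 3.24 and 1.06 RPM in wildtype, without overlap, with a log2 fold change of 3.67 ± 0.71 (edgeR adjusted p = 0.0562). Gas8 differed the same way in young males (42.0 and 39.0 RPM in dFOXO-null, 3.04 and 3.49 RPM in wildtype, adjusted p = 0.0330). Old females carried more, with 559 and 277 RPM in dFOXO-null and 46.5 and 20.0 RPM in wildtype (edgeR adjusted p = 0.0130). The group of shared counts of lncRNA:CR45309, lncRNA:CR44462, lncRNA:CR45570 and CG12885 had 54 and 24 reads in dFOXO-null and 38 or 39 and 3 reads in wildtype, with a log2 fold change of 3.11 ± 0.75 for lncRNA:CR45309. Lime, counted apart from them, had 55 and 24 reads in dFOXO-null and 40 and 4 reads in wildtype.

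Among the lower transcripts, luna, Snoo, udd and CG7231 followed the element 297. luna encodes a Krüppel-like transcription factor and Snoo a member of the Ski family. luna had 263 and 161 reads in dFOXO-null, against 10057 and 2514 reads in wildtype. Its log2 fold change was -2.97 ± 0.79 (edgeR adjusted p = 0.139, and 0.0330 in young males). Its counts were 54.1% and 48.9% of the counts of 297 at 19 to 25 nt in dFOXO-null, and 65.2% and 62.4% in wildtype. CG7231 (2L, 7983946 to 7986785, plus strand), whose end overlaps that of Snoo (2L, 7891187 to 7984196, minus strand), had 83 and 36 reads in dFOXO-null and 3528 and 732 in wildtype. Whether the reads of these 4 genes came from 297 was not tested.

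CG3906 (2R, 23511286 to 23512225, minus strand) had no read in dFOXO-null, against 540 and 58 reads in wildtype, or 87.6 and 61.5 RPM. By the floor of 3 reads it was at least 62.9-fold lower in dFOXO-null (edgeR adjusted p = 0.0562, DESeq2 adjusted p = 0.00143). Sk2, a sphingosine kinase gene (3L, 3047087 to 3050159, plus strand), had 2 and 0 reads in dFOXO-null, against 241 and 46 reads in wildtype. Its log2 fold change was -5.64 ± 1.22 (edgeR adjusted p = 0.0700, and 0.0242 in old females). lncRNA:CR30055 had 1 and 0 reads in dFOXO-null and 162 and 13 in wildtype. Lrpprc2, of a family that binds mitochondrial RNA, had 0 and 0 reads in dFOXO-null and 78 and 5 in wildtype, at least 8.72-fold lower. All 4 were without overlap. Snap24, a SNARE gene of membrane fusion, rested on 1 library, with 1 and 0 reads in dFOXO-null and 54 and 0 in wildtype.

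These 4 transcripts had their 4 highest levels in the old wildtype libraries of both sexes, with the highest in a male library each time, and stood at no more than 5.24 RPM in any library of young or dFOXO-null flies. Sk2 had 0.843 and 0 RPM in old dFOXO-null females, against 33.5 and 41.4 RPM in old wildtype females, and 0.235 and 2.51 RPM in young dFOXO-null males, against 1.01 and 5.24 RPM in young wildtype males. CG3906 had 0 and 0 RPM in old dFOXO-null females, against 17.0 and 44.9 RPM in old wildtype females, and at most 2 reads in any young library. Over the whole table, 20 of 1566 transcripts had their 4 highest levels in the 4 old wildtype libraries, and none had them in the 4 old dFOXO-null libraries. This count was chosen after the values were seen and is given without a test. The 2 sides are not on equal terms. Of all dm6 libraries, dFOXO-null replicate 2 of the old males was the shallowest (394784 reads) and wildtype replicate 1 the deepest (6166465 reads). A transcript could also pass the count filter on its old wildtype reads alone. The lowest of the 4 old wildtype levels was 13.7 times the highest elsewhere for CG3906 and 1.02 times for CG3894. Of the 20, 14 were protein coding and 5 were tRNAs. The tRNAs included the 4 tested copies of tRNA:Gln-TTG, which had similar counts and may not be separate observations. Among them were Tps1, the trehalose synthase gene (6 and 2 reads in dFOXO-null males, 52 and 9 in wildtype males), Alas, of heme synthesis (2 and 0 against 67 and 5) and vir, of the RNA methylation complex (3 and 1 against 68 and 13). tobi, an alpha-glucosidase gene known as a target of brain insulin, was not among the 20 and had 1 and 0 reads in dFOXO-null males, against 31 and 10 in wildtype males (edgeR adjusted p = 0.509).

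**Figure D4:**
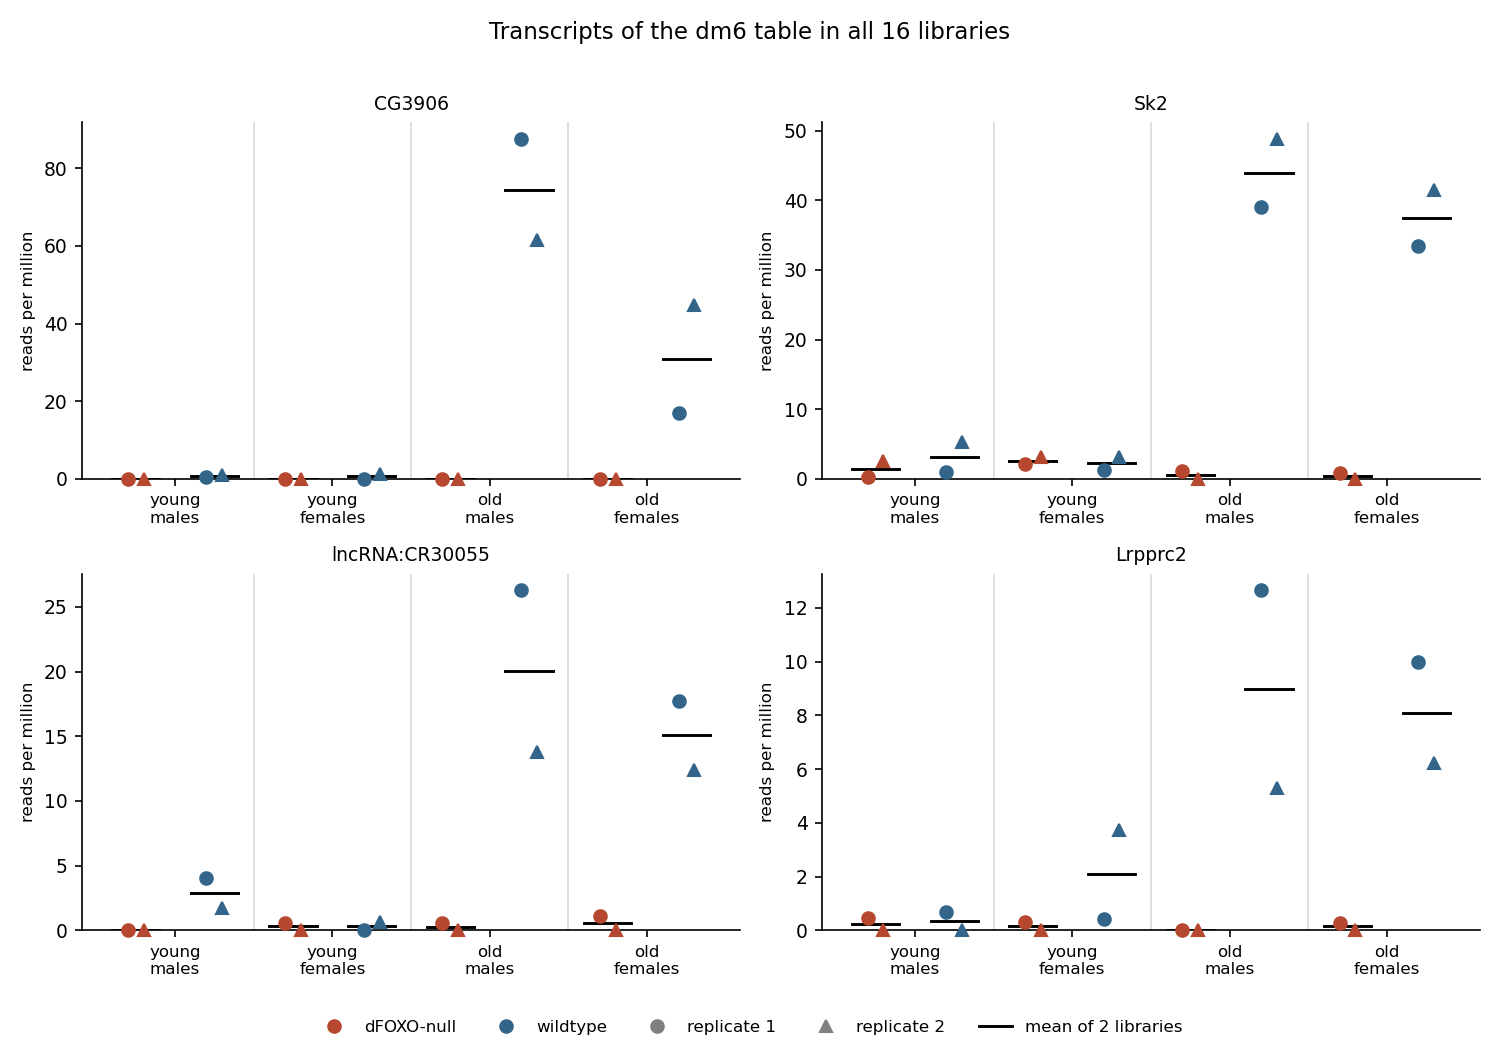
CG3906, Sk2, lncRNA:CR30055 and Lrpprc2 in all 16 libraries, in RPM of mapped dm6 reads (linear axes from 0), by age and sex, with dFOXO-null left of wildtype in each pair. Circles are replicate 1, triangles replicate 2, and bars means of 2 libraries. In each panel the 4 old wildtype libraries hold the highest values, and no dFOXO-null library reaches 4 RPM.

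Among the classes of short fragments, those of tRNAs and snRNAs took smaller shares of the dm6 counts in dFOXO-null, without overlap. These are shares of summed counts, in which copies of a gene can hold the same reads. In 1 group, 48 copies of 5S rRNA each had 21437 to 21441 counts in wildtype replicate 1. Classes with many such copies can therefore weigh more than their reads. tRNAs, the adaptors of translation, gave 5.73% and 6.54% in dFOXO-null, against 9.03% and 10.4% in wildtype. snRNAs gave 0.112% and 0.191% in dFOXO-null and 0.222% and 0.295% in wildtype. Protein coding transcripts gave 1.09% and 1.66% in dFOXO-null and 1.74% and 2.31% in wildtype, but luna, Snoo, udd and CG7231, which followed 297, carried this separation. Those 4 gave 0.0477% and 0.132% in dFOXO-null and 0.533% and 0.868% in wildtype. Without them, a step chosen after seeing the data, the shares were 1.04% and 1.53% in dFOXO-null and 1.22% and 1.45% in wildtype, which overlapped. Other noncoding RNAs took a larger share in dFOXO-null, with 8.16% and 9.09%, against 5.91% and 7.98% in wildtype. rRNA overlapped, with 19.2% and 32.8% in dFOXO-null and 32.4% and 29.6% in wildtype, and the shares of all classes sum to a fixed total. Reads on miRNA precursors gave 36.3% and 22.9% in dFOXO-null and 24.1% and 22.3% in wildtype.

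**Figure D5:**
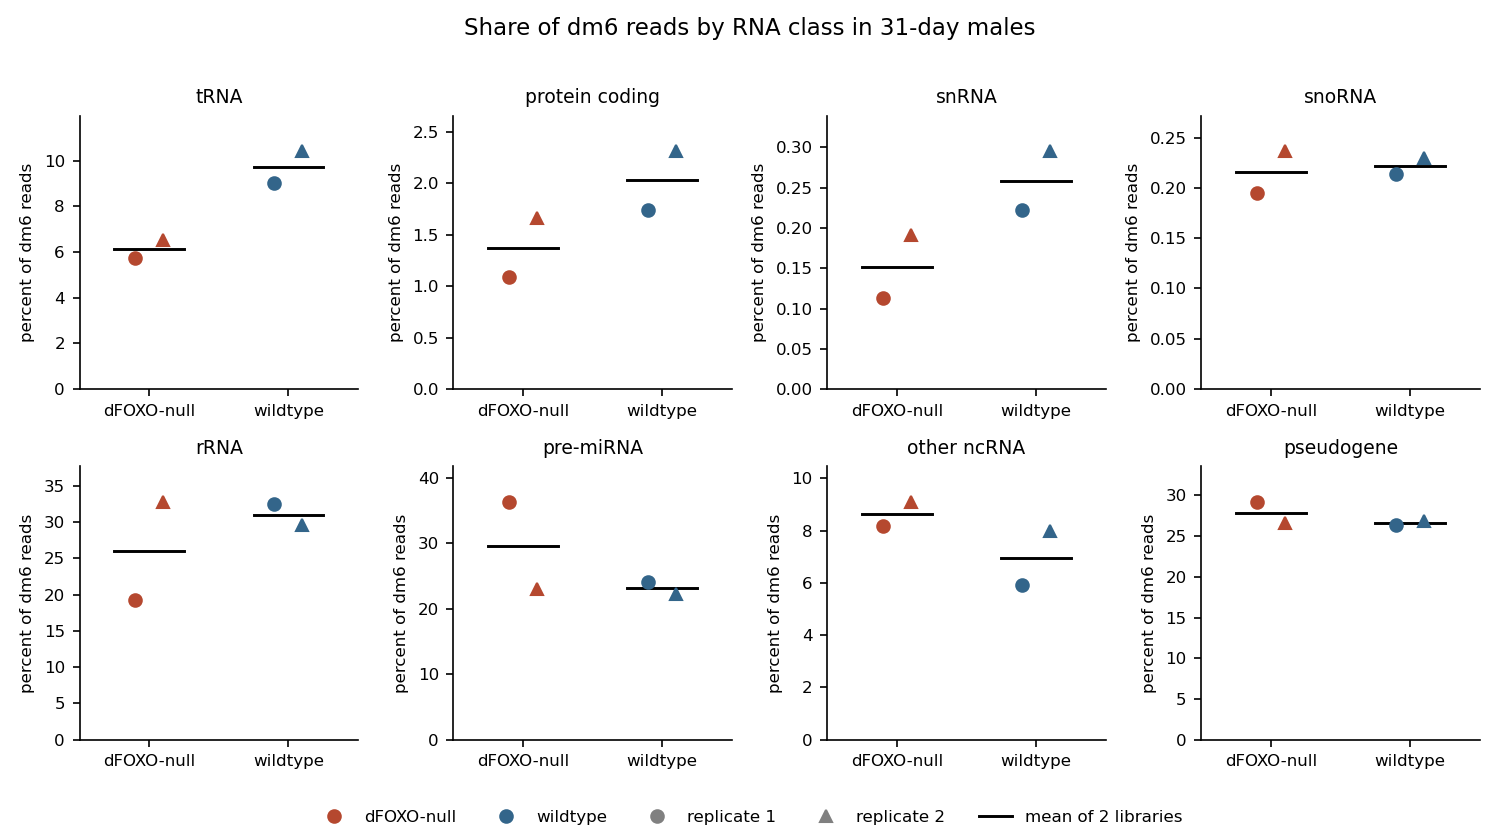
Share of the summed dm6 counts on each class of RNA in 31-day males, in percent (linear axes from 0), with dFOXO-null left of wildtype in each panel. Copies that hold the same reads are each counted. Circles are replicate 1, triangles replicate 2, and bars means of 2 libraries. The genotypes separate for tRNA (means of 6.13% in dFOXO-null and 9.72% in wildtype), protein coding transcripts (1.37% and 2.03%, the 4 that follow 297 included), snRNA (0.152% and 0.258%) and, with dFOXO-null higher, other ncRNA (8.63% and 6.95%), and overlap for the other classes.

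Among tRNAs, 37 of 45 anticodon groups had a median log2 fold change below 0, and in 13 the median levels of both dFOXO-null libraries lay below both wildtype libraries and in 1 above, beside 21.3% and 12.2% of all transcripts. The 14 copies of tRNA:Gly-GCC were at a median of 710 and 1071 RPM in dFOXO-null, against 1894 and 2705 RPM in wildtype, with a median log2 fold change of -1.37, and each copy had an unadjusted p under 0.05, as did 22 of 281 tRNA transcripts in all (7.83%), a share no higher than the 8.11% of all transcripts. These copies share reads and are not separate observations. The median over all tRNA transcripts was -0.37, against -0.22 over all transcripts, and it lay below 0 under each scaling tried, from -0.22 to -1.22. It rested on the libraries used, at -0.93 without dFOXO-null replicate 2 and 0.067 without wildtype replicate 2. Of the spliceosomal RNAs, the 5 copies of U2, which pairs with the branch point of introns, were lower, and an unadjusted p under 0.05 was reached by 5 of 28 snRNA transcripts (17.9%). snRNA:U2:14B and snRNA:U2:38ABa formed 1 group of shared counts, and whether the other copies of U2 share reads was not tested. snRNA:U2:34ABb had 103 and 132 RPM in dFOXO-null, against 276 and 379 RPM in wildtype (log2 fold change -1.48 ± 0.57, edgeR adjusted p = 0.433).

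Histone transcripts, most of which come from a tandem repeat on 2L, had 120 of 121 log2 fold changes below 0, beside 917 of all 1566 transcripts. Without dFOXO-null replicate 1 it was 75 of 121. Most of the copies fell into groups of nearly the same counts and are not separate observations. Their median was -0.78, which was -0.20 without dFOXO-null replicate 1 and -1.16 without replicate 2. The 23 copies with an unadjusted p under 0.05 were all of His3 and shared 1 set of counts. His3:CG31613 had 3 and 0 reads in dFOXO-null, against 59 and 10 reads in wildtype, without overlap (-2.97 ± 0.94, edgeR adjusted p = 0.212).

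snoRNAs, which guide the modification of rRNA, went both ways, with more of them higher. Of 131 tested, 87 had a log2 fold change above 0 and 44 below, with a median of 0.41. The median was 0.09 without dFOXO-null replicate 2 and -0.49 with library sizes set by the spike-ins. Without overlap 45 of the 131 were higher and 18 lower in dFOXO-null, beside 191 (12.2%) and 333 (21.3%) of all 1566 transcripts. snoRNA:Psi18S-1295, a guide for a pseudouridine of the 18S rRNA, had 41 and 6 reads in dFOXO-null, against 11 and 3 reads in wildtype, or 22.2 and 15.2 RPM against 1.78 and 3.18 RPM (3.07 ± 0.74, edgeR adjusted p = 0.0944). In young males and old females the same snoRNA had log2 fold changes of 3.30 and 4.15 (edgeR adjusted p = 0.0587 and adjusted p = 0.0130). snoRNA:Or-CD12 was lower, with 94.2 and 101 RPM in dFOXO-null and 281 and 413 RPM in wildtype. Its log2 fold change was -1.83 ± 0.60 (edgeR adjusted p = 0.243, and 0.0130 in old females). Reads on miRNA precursors lay above 0 in 90 of 102 precursors, beside 649 of all 1566 transcripts. Without overlap 36 of the precursors were higher and 1 lower. Their median was 0.46, which was -0.34 with library sizes set by the spike-ins. The miRNA arms at 19 to 25 nt, scaled to the reads of their own table, had 107 of 208 above 0 and a median of 0.02. The hairpin gene hpRNA:CR46342, a source of endogenous siRNAs, overlapped between genotypes, at 43695 and 35166 RPM in dFOXO-null and 30849 and 36888 RPM in wildtype. So did most of the testis repeats Stellate and Suppressor of Stellate, with 38 of 40 transcripts above 0, beside 649 of all 1566 transcripts. Copies among them share reads, with 9 Stellate transcripts in 1 group of shared counts, and are not separate observations. Their median was 0.36, which was 0.00 without dFOXO-null replicate 2 and -0.40 with library sizes set by the spike-ins. None of the 26 insulin and dFOXO pathway genes or the 13 RNA silencing genes listed had a tested transcript.

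Whether the effect of dFOXO loss in old males differed from that in young males was tested as an interaction, on libraries that do not overlap. Of 330 features at 19 to 25 nt, 1 had an unadjusted p under 0.05 (0.303%), of 258 at 21 nt none had (0%), and of 1566 transcripts 50 had (3.19%). With adjusted p-values, edgeR called 1 transcript, Muc14A, a mucin gene on X (16009114 to 16061722, plus strand) (0.0639%). Muc14A had 9 and 0 reads in old dFOXO-null males, against 162 and 74 reads in old wildtype males, and 65 and 42 reads in young dFOXO-null males, against 0 and 1 reads in young wildtype males. The log2 fold change was -3.89 in old males and 6.71 in young males, a difference of -10.6 ± 1.68 (SE, edgeR adjusted p = 0.0161). The call was lost when dFOXO-null replicate 1, dFOXO-null replicate 2 or wildtype replicate 2 of the old males was left out. Muc12Ea, a further mucin gene on X, had 30 and 284 reads in dFOXO-null and 22 and 0 in wildtype, and 1346 to 3398 RPM in old females, and its log2 fold change of 7.20 was 2.72 without dFOXO-null replicate 2.

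Against old females, no feature passed the adjusted edgeR test of the difference in the 3 tables (0%), and 21 (6.36%), 17 (6.59%) and 61 (3.9%) had an unadjusted p under 0.05. QBERT and DMU89994 were among them at 19 to 25 nt. DMU89994 had 84.4 and 85.4 RPM in old dFOXO-null males, against 32.1 and 21.4 RPM in old wildtype males, and 352 and 611 RPM in old dFOXO-null females, against 482 and 602 RPM in old wildtype females. The old males were thus separated by genotype and the old females overlapped (edgeR adjusted p of the difference = 0.516).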

How the data were processed

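Total small RNA of whole flies was sequenced by the authors, who trimmed adapters with Trim Galore, mapped reads with Bowtie with 1 mismatch allowed and every valid alignment reported, and obtained counts per feature from featureCounts. The counting rule for reads that align more than once is not given in the sources used here. The deposited values used are whole-number counts per feature and library, not normalized; percents that the authors deposited beside them were not used. The libraries of Ago1 and Ago2 are not analysed here.

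The edgeR 4.0.16 quasi-likelihood test was run in R 4.3.3, in 1 fit per table over all 16 libraries with 8 conditions, on features that averaged 5 counts or more, with the mapped reads other than spike-ins setting the library size. P-values were adjusted by Benjamini-Hochberg over all features of a table. Whether the replicates, named as biological by the study, came from separate cultures is not in the labels, so p-values measure the spread between these libraries. Counting error covers part of it only, since reads carry no molecular identifiers. DESeq2 1.42.0, TMM, spike-in scaling, other filters, fewer libraries and a replicate block were alternatives. Tables were handled in Python 3.11.15 with pandas 2.3.3. The fits were tested on simulated counts.

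Named features were those past the adjusted test, then up to 20 per class of miRNAs, 21 nt transposons and transcripts with the smallest p among non-overlapping features with a mean of at least 10 counts, features with at most 1 count in each library of 1 genotype and a mean of at least 10 in the other, list examples, and features the study names. Members and lists were chosen with earlier results of these data known. Transcripts were grouped as sharing reads where their counts differed by at most 4 reads or 3%. Positions and transcript classes come from the BDGP6 annotation, the dm6 assembly. Transposons keep the names their IDs spell.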

Additional observations from a re-analysis of the deposited data

Results flagged for a closer look

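Muc14A, a mucin gene, differed between the ages. Its log2 fold change of dFOXO-null over wildtype was -3.89 in old males and 6.71 in young males, and the difference of -10.6 passed the edgeR interaction test (adjusted p = 0.0161). The 4 old male libraries held 9 and 0 reads in dFOXO-null and 162 and 74 in wildtype, and the call was lost in 3 of the 4 fits that left out 1 old male library each. Old females carried Muc14A at 142 and 80.3 RPM in dFOXO-null and 104 and 33.8 RPM in wildtype.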

How the results depend on the processing

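Under the alternatives, 995 of 1081 values of the 85 named features kept their direction and their side of the threshold, 75 passed it with the same direction, and 11 turned direction. Against no calls at an adjusted p under 0.05, the miRNAs at 19 to 25 nt had 1 with TMM, 1 with DESeq2, 1 with the replicate block and 0 to 2 when 1 library was left out; the transposons at 19 to 25 nt had 1, 4, 1 and 0 to 9, where 2 miRNAs and 9 transposons were called without dFOXO-null replicate 1, which leaves dFOXO-null replicate 2 as the only library of its genotype, its spread taken from the other groups. The transposons at 21 nt had 5 with DESeq2. The dm6 transcripts had 20 with DESeq2, 7 with no filter, 5 under a minimum mean of 20 counts, 19 with only the libraries compared, 1 with the 8 male libraries, 19 with the replicate block and 8 with adjustment within a class. The replicate numbers pair no flies across genotypes in the labels, and the deviations of same-numbered libraries correlated at 0.22, 0.10 and 0.05 in the 3 tables, over 2 pairs, so the block rests on the number alone. The age difference of dm6 transcripts had 0 calls with library sizes set by the spike-ins and 0 to 1 when 1 library was left out. The transposon ratio at 21 nt was 1.35 without 297 and with roo left in, against 0.719. The protein coding ratio on dm6 was 0.962 without the 4 transcripts that follow 297, against 0.678. The features that turned were miR-14-3p (-0.086 with spike-in scaling, and -1.66 to 1.62 when 1 library was left out), miR-34-5p (0.088 with DESeq2, and -0.65 to 0.55), miR-277-3p (-0.087 with TMM, -0.39 with spike-in scaling, and -0.45 to 0.48) and Snap24 (-6.75 to 3.15 when 1 library was left out, the highest without wildtype replicate 1), and the cause was not tested. Spike-in scaling moved the median of all features to -0.42, -0.39 and -0.95 in the 3 tables, against 0.15, 0.00 and -0.22. The depth of dFOXO-null replicate 2, 394784 reads on dm6, limits rare transcripts most.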
